A study of Rattus norvegicus with 19 samples.

Results

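The organic anion and cation transporters described here are 9 genes: Slc22a6, Slc22a8, Slc22a7, Slc22a12, Slc22a2, Slc47a1, Slc22a5, Slco4c1 and Slco2b1. They were chosen by name, as the probes that the array files assign to these genes with control spots left out, which gave 12 of 45598 probes, and all 9 genes were among the 24238 genes tested. The genes were selected with earlier results of these arrays known.

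RNA of renal cortex was hybridised to 1 array per rat, from male Crl:CD (SD) animals, with 7 DKD+enarodustat rats, 7 DKD rats and 5 Sham rats. DKD+enarodustat rats received 65 mg/kg streptozotocin intravenously 7 days before grouping, which destroys the insulin-producing beta cells, and then ate feed containing 0.01% (w/w) enarodustat, a drug that blocks the prolyl hydroxylases through which hypoxia-inducible factor is broken down. DKD rats (diabetic kidney disease) received the same streptozotocin dose and normal feed, and Sham rats received vehicle and normal feed. Of 19 injected rats 14 were used, chosen so that the 2 diabetic groups matched in blood glucose and body weight, and all kidneys were taken 14 days after grouping. Kidneys taken this early, from rats made diabetic by a toxin, limit the groups as a model of long-standing diabetic nephropathy. Levels below are log2 of the processed Cy3 intensity minus the 75th percentile of the array, so 0 is that percentile and a difference of 1 is a factor of 2. The level of one probe cannot be set against that of another.

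Proximal tubule cells clear drugs, toxins and metabolic waste by taking organic ions from the blood side and passing them into urine. OAT1 (Slc22a6) and OAT3 (Slc22a8) exchange organic anions for intracellular dicarboxylates at the basolateral membrane, and OCT2 (Slc22a2) takes up organic cations there, driven by the membrane potential. MATE1 (Slc47a1) exports cations across the apical membrane, URAT1 (Slc22a12) recovers urate from the filtrate, and OCTN2 (Slc22a5) recovers carnitine.

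The promoters of Slc22a2, Slc22a7 and Slco4c1, whose levels moved together among rats of a group, and of Slc22a8, whose level moved against theirs, are printed 5′ to 3′ in the gene's own direction. They are RefSeq sequence of assembly GRCr8, from 250 bases before to 50 after the start of the gene, and capitals mark matches to the motifs named after them.
Slc22a2 promoter, chr1:50710970-50711269, minus strand: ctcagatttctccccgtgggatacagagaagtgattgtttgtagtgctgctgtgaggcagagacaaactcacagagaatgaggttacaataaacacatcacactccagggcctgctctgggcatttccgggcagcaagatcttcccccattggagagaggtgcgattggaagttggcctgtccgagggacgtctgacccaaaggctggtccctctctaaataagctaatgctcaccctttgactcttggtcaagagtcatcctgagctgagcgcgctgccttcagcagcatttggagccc
Slc22a7 promoter, chr9:22045248-22045547, plus strand: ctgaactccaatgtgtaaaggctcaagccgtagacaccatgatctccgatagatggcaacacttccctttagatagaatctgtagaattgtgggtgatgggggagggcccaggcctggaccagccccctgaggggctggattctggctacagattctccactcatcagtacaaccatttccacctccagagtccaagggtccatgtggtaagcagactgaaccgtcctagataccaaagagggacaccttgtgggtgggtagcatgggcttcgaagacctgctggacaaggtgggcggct
Slco4c1 promoter, chr9:104676413-104676712, minus strand: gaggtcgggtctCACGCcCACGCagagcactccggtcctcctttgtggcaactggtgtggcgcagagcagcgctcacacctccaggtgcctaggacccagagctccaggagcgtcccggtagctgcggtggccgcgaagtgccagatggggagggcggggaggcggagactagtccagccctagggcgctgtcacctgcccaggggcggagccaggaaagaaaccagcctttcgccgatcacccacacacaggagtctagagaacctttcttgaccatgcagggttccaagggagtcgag
Slc22a8 promoter, chr1:214927034-214927333, plus strand: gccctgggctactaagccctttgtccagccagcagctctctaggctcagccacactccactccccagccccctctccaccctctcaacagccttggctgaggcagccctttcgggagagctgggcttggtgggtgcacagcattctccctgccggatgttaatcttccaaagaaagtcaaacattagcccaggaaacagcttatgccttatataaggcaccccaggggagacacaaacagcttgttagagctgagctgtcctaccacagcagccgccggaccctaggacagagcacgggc
The motifs searched on both strands, none of whose matches overlapped, were AGGTCA (nuclear receptors), ACGTG and GCGTG (the hypoxia response core) and TGTTCT (the glucocorticoid receptor). Over all 33469 promoters of the same length, 16.2% held AGGTCA, 19.3% ACGTG, 29.7% GCGTG and 20.7% TGTTCT. Promoter sequences were matched for 7 of the 9 genes. GCGTG lay in reverse at 238 and 232 bases before the start of Slco4c1 and at 2 places in the promoter of Slc22a5, and ACGTG lay once in that of Slco2b1, while the promoters of Slc22a2, Slc22a7, Slc22a8 and Slc22a12 held none of these motifs. These are matches of letters, not sites of binding.

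In DKD against Sham kidneys 2 of the 9 genes fell, Slc22a2 and Slc22a6, and none rose, with 7 that did not pass an adjusted p of 0.05. Over all genes tested 17.1% passed in that comparison, 8.02% higher and 9.07% lower. In DKD+enarodustat against DKD kidneys 0 of the 9 passed in limma and 0 had an unadjusted p under 0.05, beside 2% of all genes that passed (1.07% higher and 0.928% lower), and the count was 0 under each of 32 other settings. None of the 9 separated the groups without overlap there, beside 1.25% of all genes (0.685% higher and 0.565% lower). Against Sham kidneys, DKD+enarodustat showed lower Slc22a2 and Slc22a6 and higher Slc22a7, beside 26.1% of all genes that passed (10% higher and 16% lower). The median log2 difference of the 9 genes was -0.07 in DKD+enarodustat against DKD, -0.26 in DKD+enarodustat against Sham and -0.19 in DKD against Sham, beside -0.02, -0.04 and -0.02 over all genes. The last 2 of these comparisons share the Sham arrays, and the first shares its own arrays with each of them.

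**Figure D1:**
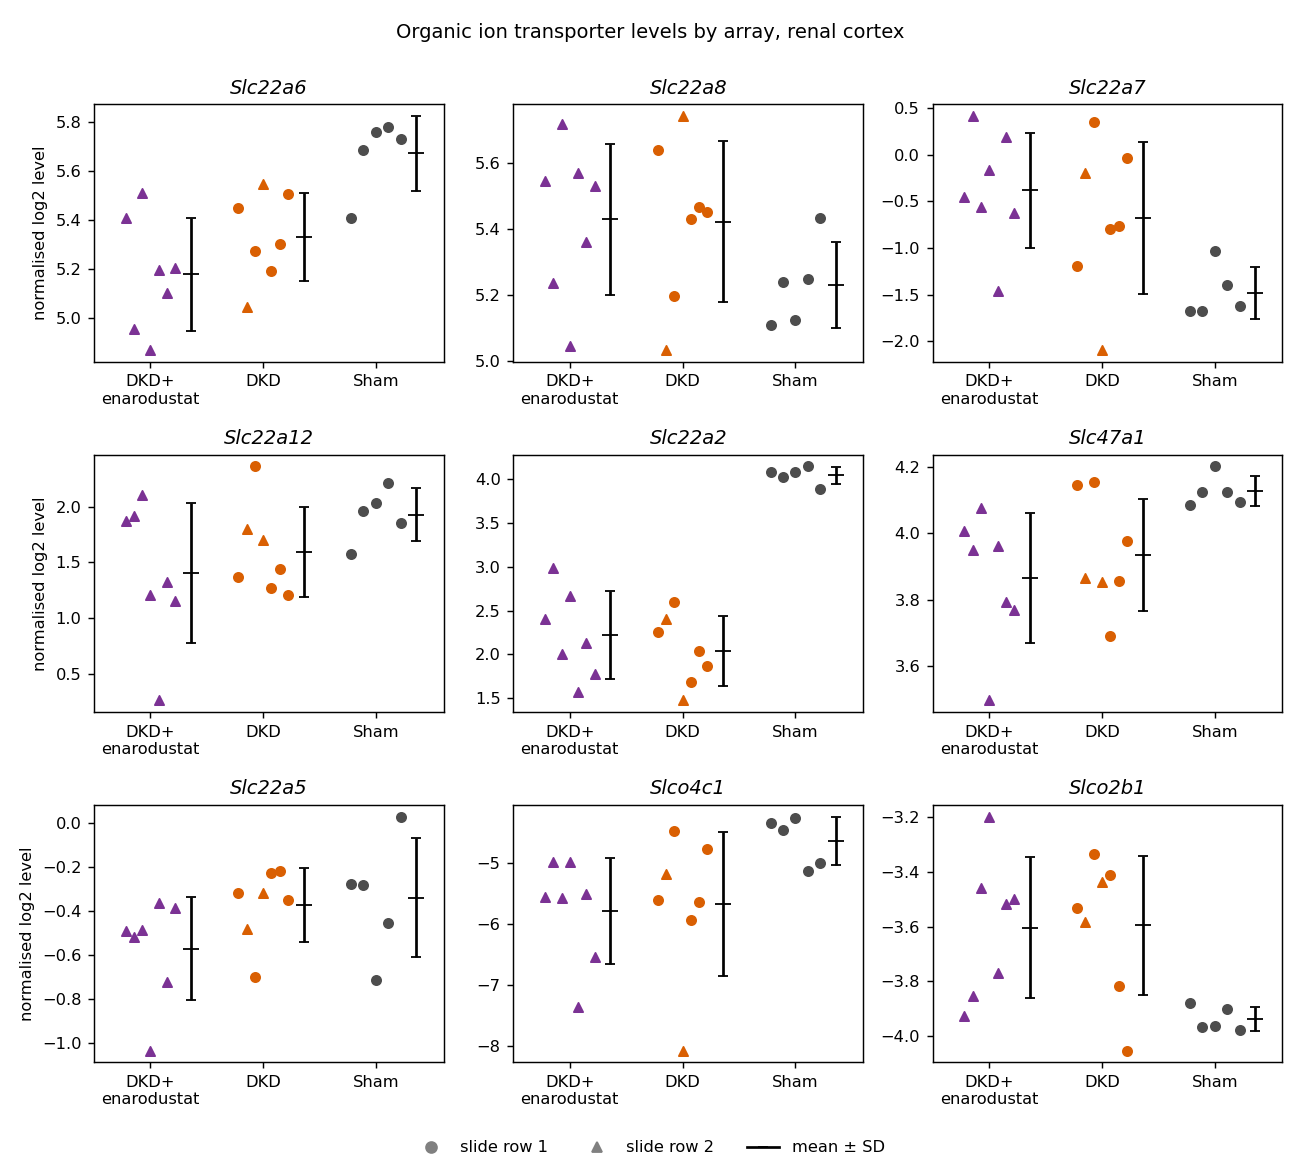
Each panel plots 1 gene, with its normalised log2 level on the vertical axis and 1 point per array for DKD+enarodustat (n = 7), DKD (n = 7) and Sham (n = 5), and bars give the mean ± SD; circles are arrays of slide row 1 and triangles of slide row 2. Slc22a2 is the panel in which all 14 diabetic arrays lie between 1.48 and 2.99, below the Sham arrays at 3.89 to 4.15.

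**Figure D2:**
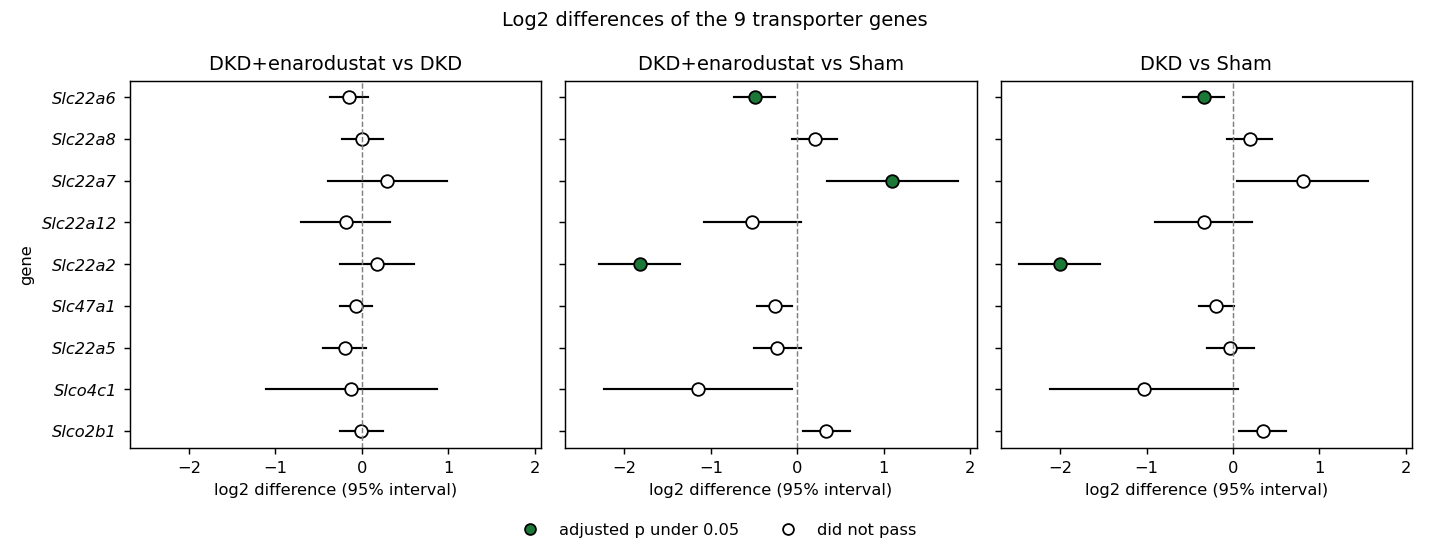
Points are log2 differences of each gene in the 3 comparisons with 95% intervals, and filled points have an adjusted p under 0.05. The interval of Slc22a2 lies at -2.47 to -1.53 in DKD against Sham, and all 9 intervals cover 0 in DKD+enarodustat against DKD.

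Among the basolateral anion transporters, Slc22a6, which encodes OAT1, was modestly lower in diabetic cortex. Its level was 4.87 at the lowest, 5.20 at the median and 5.51 at the highest in DKD+enarodustat rats, and 5.05, 5.30 and 5.55 in DKD rats. The 5 Sham rats had 5.41, 5.69, 5.76, 5.78 and 5.73. The Sham range overlapped those of both diabetic groups only through its lowest array, replicate 1, since the other 4 Sham arrays were above all 14 diabetic ones. Means were 5.18 ± 0.23 in DKD+enarodustat (SD, n = 7), 5.33 ± 0.18 in DKD (n = 7) and 5.67 ± 0.15 in Sham (n = 5). The log2 difference was -0.34 ± 0.11 (SE) in DKD against Sham (adjusted p = 0.0484), a level 1.27 times lower, and -0.49 ± 0.11 in DKD+enarodustat against Sham (adjusted p = 0.00378). The call in DKD against Sham lay at the threshold: leaving out 1 array at a time gave adjusted p from 0.0283 to 0.112 and lost it for 9 of 12 arrays, and the adjusted p was 0.074 with the replicate number as a block, 0.12 with arrays centred on their median and 0.0854 with no filter on dim probes. Other normalisations gave a larger difference that passed: -0.50 after quantile normalisation (adjusted p = 0.00174), -0.52 after normexp background correction and quantile normalisation (adjusted p = 0.000442), and -0.46 in the authors' deposited value table, refitted (adjusted p = 0.000412). DKD+enarodustat differed from DKD by -0.15 (95% interval -0.37 to 0.07, adjusted p = 0.587). The probe of Slc22a6 lies on chromosome 1 from 211302331 to 211302390 on the plus strand of rn4.

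Slc22a8, which encodes OAT3 and lies beside Slc22a6 in gene order, did not pass in any comparison through the probe that carries its name. That probe, on chromosome 1 from 211287537 to 211287596 (rn4), read 5.04, 5.53 and 5.72 (lowest, median and highest) in DKD+enarodustat rats and 5.03, 5.45 and 5.74 in DKD rats, against 5.11, 5.24, 5.12, 5.25 and 5.43 in Sham rats. The diabetic ranges enclosed the Sham range. The log2 difference was 0.19 ± 0.13 in DKD against Sham (adjusted p = 0.351) and 0.01 in DKD+enarodustat against DKD (95% interval -0.23 to 0.25). After quantile normalisation the DKD against Sham difference was 0.026 (adjusted p = 0.925). A further probe is named in the files only by the Ensembl transcript ENSRNOT00000024488, which the accession field of the Slc22a8 probe also lists. That probe, chosen after its values were seen, was above background on all 19 arrays. It read 0.20, 1.48 and 1.72 (lowest, median and highest) in DKD+enarodustat rats and 0.52, 1.18 and 1.84 in DKD rats, against 0.08, 0.59, 0.47, 0.13 and 0.61 in Sham rats. Its difference was 0.75 ± 0.25 in DKD against Sham (adjusted p = 0.0464) and 0.87 ± 0.25 in DKD+enarodustat against Sham (adjusted p = 0.0143). With 1 array left out the DKD against Sham call was lost for 10 of 12 arrays (adjusted p 0.0274 to 0.113), and with the replicate block the 2 adjusted p-values were 0.131 and 0.0569. The probes of this gene thus differed in size and in call, although they varied together, at r = 0.87 over the 19 arrays.

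Slc22a7 encodes OAT2, an organic anion transporter that in rat kidney lies mainly in the straight part of the proximal tubule. It was higher in DKD+enarodustat than in Sham kidneys and varied widely among diabetic rats. The 7 DKD+enarodustat rats had a lowest level of -1.46, a median of -0.46 and a highest of 0.41, and the DKD rats had -2.09, -0.77 and 0.35. Sham rats had -1.68, -1.68, -1.03, -1.40 and -1.62. Both diabetic ranges reached into the Sham range through their lowest arrays. The SD was 0.62 in DKD+enarodustat and 0.82 in DKD, against 0.28 in Sham. The log2 difference was 1.099 ± 0.36 in DKD+enarodustat against Sham (adjusted p = 0.0308, 2.14 times), 0.80 ± 0.36 in DKD against Sham (adjusted p = 0.145) and 0.30 ± 0.33 in DKD+enarodustat against DKD (95% interval -0.39 to 0.98). The call against Sham was lost for 6 of 12 arrays left out (adjusted p 0.0111 to 0.0664) and with the replicate block (0.0564). With the row of the slide as a covariate, or in row 2 alone, the difference between DKD+enarodustat and DKD was 0.76 and did not pass (adjusted p = 0.745 and 0.94). Leaving out DKD replicate 4, the lowest DKD array, gave 1.04 in DKD against Sham with an adjusted p of 0.0294.

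Slc22a7 and Slc22a12 each have another probe, which is printed because it tests the same gene with different letters, 5′ to 3′ as on the array.
Slc22a7 further probe, chr9:9939078-9939137, rn4, plus strand: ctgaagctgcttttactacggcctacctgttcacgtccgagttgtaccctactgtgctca
Slc22a12 further probe, chr1:209327478-209327536, rn4, minus strand: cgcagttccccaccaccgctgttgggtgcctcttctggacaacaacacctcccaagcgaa
The further Slc22a7 probe gave 1.09 in DKD+enarodustat against Sham (adjusted p = 0.0379) and 0.80 in DKD against Sham (adjusted p = 0.164), close to the values of the main one. The main probe spans 9939553 to 9940122 on chromosome 9, longer than its 60 bases.

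Slc22a12, the urate transporter URAT1, did not pass in any comparison through its brighter probe, which lies on chromosome 1 from 209320994 to 209321053 (rn4). It read 0.26, 1.32 and 2.10 (lowest, median and highest) in DKD+enarodustat rats and 1.21, 1.44 and 2.36 in DKD rats, against 1.57, 1.97, 2.04, 2.21 and 1.86 in Sham rats. The 3 ranges overlapped, and 1 DKD+enarodustat array lay far below the rest. DKD+enarodustat differed from DKD by -0.19 (95% interval -0.70 to 0.33). The differences were -0.52 ± 0.27 in DKD+enarodustat against Sham (adjusted p = 0.166) and -0.34 ± 0.27 in DKD against Sham (adjusted p = 0.468). The dimmer probe gave differences of the same size, -0.52 and -0.34, with a smaller spread, and passed in DKD+enarodustat against Sham (adjusted p = 0.0379) but not in DKD against Sham (0.223).

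Slc22a2, the basolateral cation transporter OCT2, fell more than any other of the 9 genes in both diabetic groups against Sham. Its level was 1.57 at the lowest, 2.13 at the median and 2.99 at the highest in DKD+enarodustat rats, and 1.48, 2.04 and 2.59 in DKD rats. The Sham rats had 4.09, 4.03, 4.08, 4.15 and 3.89, so no diabetic array reached the Sham range, a separation shown by 10.7% of all genes in DKD against Sham (4.85% higher and 5.82% lower). Means were 2.22 ± 0.50 in DKD+enarodustat, 2.05 ± 0.40 in DKD and 4.05 ± 0.10 in Sham. The log2 difference was -2.001 ± 0.22 in DKD against Sham (adjusted p = 9.16e-06), a level 4.00 times lower, which ranked 139 of 24238 genes by p. It was -1.82 ± 0.22 in DKD+enarodustat against Sham (adjusted p = 1.33e-05), and in DKD+enarodustat against DKD 0.18 ± 0.20 (95% interval -0.25 to 0.61, adjusted p = 0.821). The order of the group means was Sham, DKD+enarodustat and DKD, and the last 2 did not differ beyond their spread. Leaving out any 1 array kept the DKD against Sham difference between -2.09 and -1.91. The probe lies on chromosome 1 from 42395683 to 42395742 on the minus strand of rn4.

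A neighbour of Slc22a2 in GRCr8 gene order is Slc22a3, which encodes the cation transporter OCT3. It was not well above background on any of the 5 Sham arrays and was above it on 5 of 7 DKD and 1 of 7 DKD+enarodustat arrays. The fitted level was 3.36-fold higher in DKD than in Sham (limma adjusted p = 0.0173). Because the gene passed the filter only through diabetic arrays, that p-value is no independent support for the difference. Raising Sham values to the lowest signal well above background left the DKD against Sham difference unchanged, at 3.36-fold. That value is a fitted estimate near background and not a lower bound.

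Slc47a1 encodes MATE1, the apical partner of OCT2, and did not pass in any comparison through its brighter probe. It read 3.50, 3.95 and 4.08 (lowest, median and highest) in DKD+enarodustat rats and 3.69, 3.87 and 4.16 in DKD rats, against 4.08, 4.12, 4.201, 4.12 and 4.10 in Sham rats. All 7 DKD+enarodustat arrays lay below the Sham arrays, the highest at 4.076 against a lowest Sham level of 4.084, and 14.4% of all genes separated in this comparison (5.51% higher and 8.87% lower), whereas 2 DKD arrays lay within the Sham range. The difference was -0.07 in DKD+enarodustat against DKD (95% interval -0.25 to 0.12), -0.26 ± 0.10 in DKD+enarodustat against Sham (adjusted p = 0.0542) and -0.19 ± 0.10 in DKD against Sham (adjusted p = 0.203). The other probe of the gene passed in DKD+enarodustat against Sham (-0.36, adjusted p = 0.0378). The test depended on the normalisation: after quantile normalisation the difference was -0.43 (adjusted p = 0.000984) in DKD+enarodustat against Sham, and in the authors' deposited value table, refitted, it was -0.38 (adjusted p = 5.35e-05). For DKD against Sham the table gave -0.27 (adjusted p = 0.00198) and quantile normalisation -0.31 (adjusted p = 0.0153). With the slide row entered as a covariate the difference between DKD+enarodustat and Sham was -0.16 (adjusted p = 0.703).

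Slc22a5, the carnitine transporter OCTN2, did not pass in the 3 comparisons, although its difference between DKD+enarodustat and Sham passed under some other settings. It read -1.03, -0.49 and -0.36 (lowest, median and highest) in DKD+enarodustat rats and -0.70, -0.32 and -0.22 in DKD rats, against -0.28, -0.28, -0.71, -0.45 and 0.03 in Sham rats. The ranges overlapped. The difference was -0.20 (95% interval -0.45 to 0.05) in DKD+enarodustat against DKD, -0.23 in DKD+enarodustat against Sham (adjusted p = 0.211) and -0.03 (95% interval -0.31 to 0.24) in DKD against Sham. Between DKD+enarodustat and Sham it passed in the authors' deposited value table, refitted (-0.29, adjusted p = 0.00628), and with slide as a covariate (-0.28, adjusted p = 0.049). Of 10 other genes of carnitine handling that were tested, 5 rose in DKD against Sham and none fell, with a median difference of 0.37. They were Cpt2 (0.81, adjusted p = 0.000151) and Cpt1a (0.77, 0.016), which move acyl groups on and off carnitine, Slc25a20 (0.63, 0.00241), the mitochondrial carnitine carrier, Slc16a9 (0.85, 0.00146), a carnitine efflux transporter, and Bbox1 (1.41, 0.0166), the last enzyme of carnitine synthesis, which was above background on 5 of 7 DKD and 2 of 5 Sham arrays. Between DKD+enarodustat and DKD 0 of the 10 passed in limma, and 2 had an unadjusted p under 0.05.

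Slco4c1 encodes OATP4C1, which takes up digoxin and thyroid hormone at the basolateral membrane. It did not pass with the processing used here, and its spread was the widest of the 9 genes. It read -7.37, -5.56 and -4.98 (lowest, median and highest) in DKD+enarodustat rats and -8.08, -5.61 and -4.47 in DKD rats, against -4.34, -4.46, -4.27, -5.13 and -5.01 in Sham rats. The ranges overlapped, with low single arrays in both diabetic groups, and the probe was above background on 6 of 7 DKD+enarodustat, 6 of 7 DKD and 5 of 5 Sham arrays. The difference was -1.15 ± 0.51 in DKD+enarodustat against Sham (adjusted p = 0.113), -1.03 ± 0.51 in DKD against Sham (adjusted p = 0.2) and -0.12 in DKD+enarodustat against DKD (95% interval -1.11 to 0.87). The size depended on the background correction: with normexp and quantile normalisation the difference was -0.41 in DKD+enarodustat against Sham, which passed (adjusted p = 0.0212), and -0.33 in DKD against Sham (adjusted p = 0.0815). With the row as a covariate the difference between DKD+enarodustat and Sham was 0.20 (adjusted p = 0.93), in the opposite direction. That row term rests on the DKD arrays, of which only replicates 2 (-5.17) and 4 (-8.08) lay in row 2. Without DKD replicate 4 the difference between DKD and Sham was -0.63. That array also had the highest summed adipocyte marker signal, 13.1, against 0.412 to 0.704 in Sham arrays, and the part of this in the level was not tested.

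Slco2b1 encodes OATP2B1, a carrier of sulphated steroids and several drugs. It read -3.93, -3.52 and -3.20 (lowest, median and highest) in DKD+enarodustat rats and -4.05, -3.53 and -3.34 in DKD rats, against -3.88, -3.97, -3.96, -3.90 and -3.98 in Sham rats. The Sham arrays lay between -3.98 and -3.88, at the low end of the diabetic ranges, and the groups overlapped through 1 array of DKD+enarodustat and 1 of DKD. The difference was 0.33 ± 0.13 in DKD+enarodustat against Sham (adjusted p = 0.0666) and 0.34 ± 0.13 in DKD against Sham (adjusted p = 0.0804), and -0.01 in DKD+enarodustat against DKD (95% interval -0.26 to 0.24). With the replicate block the difference between DKD+enarodustat and Sham passed (0.38, adjusted p = 0.0483), and without DKD replicate 7 that between DKD and Sham did (0.42, adjusted p = 0.0215). Both passed with slide as a covariate, at 0.36 in DKD+enarodustat against Sham (adjusted p = 0.0263) and 0.37 in DKD against Sham (adjusted p = 0.0326). In the authors' deposited value table, refitted, both also passed but were smaller, at 0.175 (adjusted p = 0.0258) and 0.18 (adjusted p = 0.0307). With normexp and quantile normalisation they were 0.176 and 0.185 and did not pass (adjusted p = 0.0932 and 0.107), and with the row as a covariate the difference between DKD+enarodustat and Sham was 0.21 (adjusted p = 0.7). The probes of the last 4 genes lie, in rn4 and on the minus strand, on chromosome 10 from 47513220 to 47513279 (Slc47a1) and from 39311935 to 39311994 (Slc22a5), on chromosome 9 from 96042794 to 96042853 (Slco4c1) and on chromosome 1 from 156993236 to 156993295 (Slco2b1). Exon and intron annotation of rn4 was not used here.

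Of 29 other SLC22, SLCO and SLC47 transporters looked up, 20 were tested, and in DKD against Sham 9 fell and 3 rose, with a median difference of -0.25. The 3 include Slc22a3, which passed the filter only through diabetic arrays. The largest falls were in the SLCO1A carriers of bile acids and steroid conjugates, Slco1a1 (-4.60 ± 0.56, adjusted p = 2.4e-05) and Slco1a4 (-4.45 ± 0.59, adjusted p = 5.59e-05). Slc22a17, a receptor for lipocalin 2, had -0.57 (adjusted p = 7.98e-05), and Slc22a25 and Slc22a22 had -0.79 and -1.47 (adjusted p = 8.29e-05 and 0.00186). Slco2a1, the prostaglandin transporter, rose by 1.19 ± 0.13 (adjusted p = 6.78e-06). For DKD+enarodustat against DKD 0 of the 20 passed in limma and 2 had an unadjusted p under 0.05. Slc22a17 had 0.21 there (adjusted p = 0.168). Slc22a25 is also the neighbour of Slc22a8 in gene order.

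**Figure D3:**
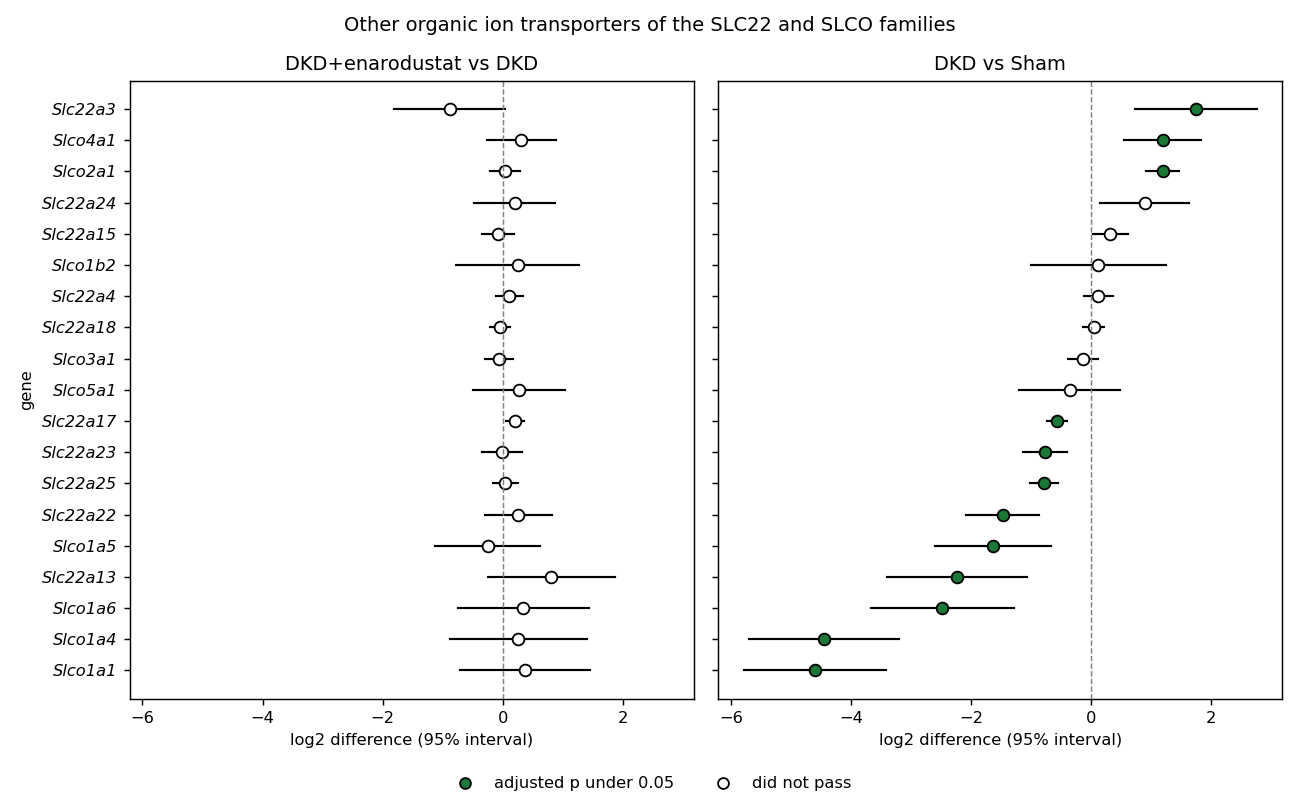
Points are log2 differences of 19 of the 20 other SLC22 and SLCO genes tested, with 95% intervals, in DKD+enarodustat against DKD and in DKD against Sham, and filled points have an adjusted p under 0.05. In DKD against Sham 12 points are filled, 9 of them lower, and in DKD+enarodustat against DKD 0 are filled. The filled point of Slc22a3 is an estimate near background, since no Sham array was above background and only diabetic arrays kept this gene.

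The genes that complete organic ion secretion on the apical side, supply its dicarboxylates or handle urate were 17, and in DKD against Sham 9 of them rose and 3 fell (median 0.25). Abcb1b, a P-glycoprotein gene, rose by 4.61 ± 0.36 (adjusted p = 2.73e-07) and Abcc2, the apical anion pump MRP2, by 1.41 ± 0.18 (adjusted p = 3.99e-05). Slc17a4 and Slc17a3, apical anion and urate transporters, rose by 1.08 and 0.78 (adjusted p = 6.78e-06 and 0.00338). Slc13a3, which brings dicarboxylates into the cell from the blood side, fell by 0.41 (adjusted p = 0.00135), and Pdzk1, the scaffold that binds URAT1, fell by 0.37 (adjusted p = 0.00257). For DKD+enarodustat against DKD 0 of the 17 passed in limma and 1 had an unadjusted p under 0.05.

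Of 15 transcription factors and receptors linked to renal transporter genes, 5 fell and 2 rose in DKD against Sham, with a median of -0.03. Esr1, the oestrogen receptor alpha, had -1.66 ± 0.17 (adjusted p = 3.23e-06). Hnf4a, a factor of proximal tubule identity, had -0.41 (adjusted p = 0.00128). Nr1i2, the xenobiotic sensor PXR, rose by 0.31 (adjusted p = 0.00456), and Nfe2l2, the oxidative stress factor NRF2, by 0.35 (adjusted p = 0.0161). Between DKD+enarodustat and DKD 0 of the 15 passed in limma, and 4 had an unadjusted p under 0.05. Hif1a and Epas1, which encode the subunits that enarodustat stabilises as proteins, had -0.24 (adjusted p = 0.115) and 0.16 (adjusted p = 0.33) there.

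Of 12 proximal tubule markers, 7 fell and 2 rose in DKD against Sham. Their summed signal, relative to the 75th percentile of each array, was 365 to 443 in DKD+enarodustat and 375 to 459 in DKD arrays, against 512 to 566 in Sham arrays, with no overlap with Sham. In bulk tissue fewer proximal tubule cells and less RNA per cell cannot be told apart, and the part of the markers in the falls of Slc22a2 and Slc22a6 was not tested. Of 6 markers of the straight part of the tubule 4 fell and 1 rose, among them Slc7a12 (-3.62, adjusted p = 2.61e-06) and Slc7a13 (-1.42, adjusted p = 0.00862), and 1 of the 6, Slc22a13, is also among the other transporters above. Their summed signal was 8.91 to 20.2 in DKD+enarodustat and 8.71 to 17.5 in DKD arrays, against 14.5 to 17.77 in Sham arrays. Their mean log2 level was -1.67 to -0.37 in DKD+enarodustat and -2.31 to -0.64 in DKD arrays, against -0.39 to -0.02 in Sham arrays. Adipocyte marker sums were 0.735 to 5.24 in DKD+enarodustat and 0.704 to 13.1 in DKD arrays, against 0.412 to 0.704 in Sham arrays, and 3 of the 5 tested rose in DKD against Sham. Lep, one of them, was above background on 3 of 7 DKD+enarodustat, 4 of 7 DKD and 0 of 5 Sham arrays, and so passed the filter only through diabetic arrays. Without DKD replicates 2 and 4, which had the highest adipocyte sums, the DKD against Sham difference was -1.96 for Slc22a2 (adjusted p = 5.09e-05) and -0.33 for Slc22a6 (adjusted p = 0.0819). Thick ascending limb markers fell in 3 of 6 cases and podocyte markers in 2 of 5, while collecting duct markers rose in 2 of 6, fibroblast markers in 2 of 5, distal convoluted tubule markers in 1 of 4 and leukocyte markers in 1 of 6. Beside these and the other list counts, 8.02% of all genes rose and 9.07% fell in DKD against Sham. Counts of 1 in lists this short were not read as a change of that cell type. None of 6 endothelial markers passed in DKD against Sham, where 1 had an unadjusted p under 0.05.

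Slide row 2 held all DKD+enarodustat arrays and slide row 1 all Sham arrays, so row and group cannot be told apart in that comparison except through the DKD arrays, of which 5 lay in row 1 and replicates 2 and 4 in row 2. Each of the 3 slides held all groups. Within row 1 the DKD against Sham difference of Slc22a2 was -1.96 (adjusted p = 0.00016) and that of Slc22a6 was -0.33 (adjusted p = 0.0494), and Slc22a7 passed there at 0.99 (adjusted p = 0.0474). Within slides 1, 2 and 3 the Slc22a2 difference was -1.73 (adjusted p = 0.106), -2.08 (0.178) and -2.03 (0.0432); slide 3 holds 1 Sham array, which was assumed to vary like the other groups. With row as a covariate Slc22a2 remained lower in DKD+enarodustat than in Sham (-1.67, adjusted p = 0.0239), and in that comparison Slc22a6 had -0.45 (adjusted p = 0.267) and Slc22a7 1.76 (adjusted p = 0.124), which no longer passed, although the difference was close to that without the covariate for Slc22a6 and larger for Slc22a7. On average 58.9% of probes were above background in DKD+enarodustat, 62.8% in DKD and 64.3% in Sham arrays. Within DKD the share differed by row, at 57.7% and 54.7% in the 2 arrays of row 2, against 62.5% to 67.3% in the 5 arrays of row 1.

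Among rats of the same group some of the transporters moved together. Deviations from the group means were correlated over the 19 arrays for 36 pairs of genes and for each gene with the mean of the 2 proximal tubule marker lists, 54 relations in all, with permutation p-values of Pearson's r and Spearman's rho adjusted over them. For 8 of the 36 pairs the adjusted p of r was under 0.05. Slc22a7 and Slco4c1 rose and fell together (r = 0.886, rho = 0.8, permutation adjusted p = 0.0018 and 0.0106), as did Slc22a2 and Slco4c1 (r = 0.772, rho = 0.681, permutation adjusted p = 0.00292 and 0.0297). Slc22a2 and Slc22a7 had r = 0.715 (permutation adjusted p = 0.0194), with an adjusted p of 0.0741 for rho. Without the 2 arrays farthest from the median of the first gene r was 0.79, 0.728 and 0.596, and after removal of slide means it was 0.908, 0.797 and 0.846.

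Slc22a8 moved with its neighbour Slc22a6 (r = 0.828, rho = 0.818, permutation adjusted p = 0.0018 and 0.0103) and with Slc22a5 (r = 0.677, rho = 0.63, permutation adjusted p = 0.00856 and 0.0297). Without the 2 farthest arrays r was 0.753 and 0.582, and after removal of slide means 0.865 and 0.819. Slc22a5 and Slc22a6 did not pass with each other (r = 0.299, rho = 0.239, permutation adjusted p = 0.389 and 0.541). Their r was 0.192 without the 2 farthest arrays and 0.583 after removal of slide means. Slc22a8 moved against the first set of Slc22a2, Slc22a7 and Slco4c1, with r = -0.692, -0.697 and -0.648 (permutation adjusted p = 0.0261, 0.0261 and 0.0467). Their rho was -0.639, -0.702 and -0.716 (permutation adjusted p = 0.0499, 0.0229 and 0.021). The r values were -0.696, -0.592 and -0.661 without the 2 farthest arrays, and -0.693, -0.702 and -0.622 after removal of slide means. Slc22a5 also moved against the same genes by rho, at -0.611, -0.647 and -0.67 (permutation adjusted p = 0.0378, 0.0229 and 0.021). Its r of -0.531, -0.523 and -0.482 did not pass (permutation adjusted p = 0.057, 0.057 and 0.0958).

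The mean level of the 6 straight tubule markers followed the first set, with r = 0.898 for Slco4c1, 0.866 for Slc22a7 and 0.789 for Slc22a2 (permutation adjusted p = 0.0018, 0.00243 and 0.00378). Their Spearman's rho was 0.767, 0.747 and 0.614, the last with an adjusted p of 0.062. The relation held without the 2 farthest arrays at 0.723, 0.766 and 0.692, and after removal of slide means at 0.893, 0.924 and 0.769. Slc22a8 had r = -0.63 with these markers and did not pass (permutation adjusted p = 0.057). No gene passed with the 12 proximal tubule markers, where r lay between -0.304 and 0.501. Between groups, Slc22a2 fell in both diabetic groups against Sham and Slc22a7 rose in DKD+enarodustat against Sham.

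**Figure D4:**
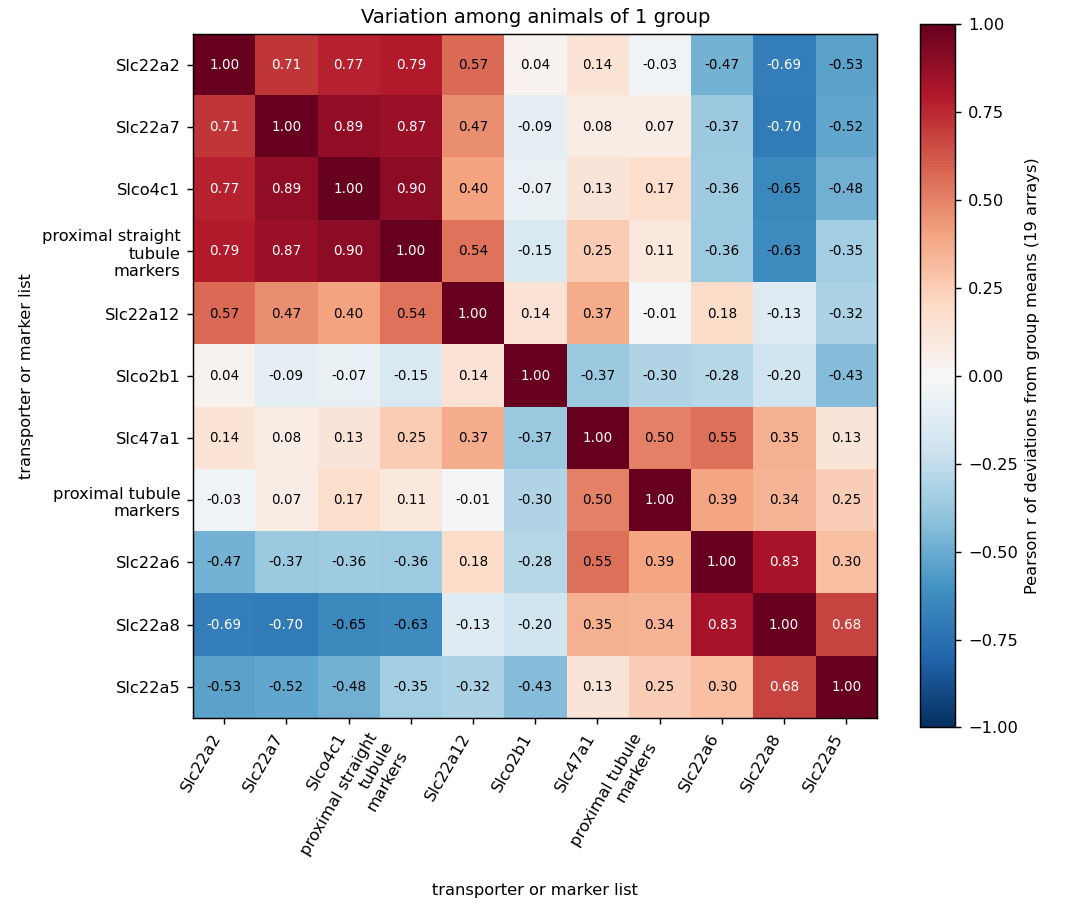
The grid gives Pearson's r of deviations from the group means over 19 arrays, for the 9 genes and 2 marker means on both axes, with colour from -1 (blue) to 1 (red). Slc22a2, Slc22a7, Slco4c1 and the straight tubule markers form a block with r of 0.71 to 0.90, opposed most strongly by Slc22a8 and less so by Slc22a5.

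The genes whose deviations most resembled those of the transporters, over 24238 genes and 19 arrays and as a description only, were Slco1a6 (r = 0.96) and Slc7a13 (r = 0.94) for Slco4c1, Hnmt (r = 0.92), a histamine methyltransferase, for Slc22a2, and Shmt2 (r = 0.92) for Slc22a6. Car12, a carbonic anhydrase, was nearest to Slc22a8 (r = 0.93) and Mdh2, the mitochondrial malate dehydrogenase, to Slc47a1 (r = 0.89). In levels, which include the differences between groups, the nearest were Iqch (r = 0.98) and the prolactin receptor Prlr (r = 0.97) for Slc22a2, the gluconeogenic enzyme gene Fbp1 (r = 0.89) for Slc22a6, Slc22a24 (r = 0.91) for Slc22a7, Car12 (r = 0.93) for Slc22a8 and Ppp1r1a (r = 0.93) for Slco4c1. These 19 arrays share 3 slides, and a likeness picked as the highest of so many is larger than one fixed in advance.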

How the data were processed

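Each deposited array file lists Cy3 intensity by spot; Agilent Feature Extraction 11.5.1.1 had subtracted background and detrended it, per the file headers. A table deposited by the authors holds log2 values of 22739 probes, whose normalisation is not given in the sources used here; the submitters' processing notes also name limma. Of 62976 spots per array 58717 were not controls. Outlier spots were left out and the 75th percentile of each array was subtracted from log2 intensity. The spots of each of the 45598 probes were then averaged, with 65 values missing. Probes well above background on at least 5 of 19 arrays were kept, and the brightest on average stood for its gene (24238 genes), named through RefSeq (GRCr8) for 21109 probes, through another probe for 1977 and by the file for 22512. Probe positions are those of rn4 in the files.

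The 3 groups, taken from the labels, entered 1 fit in limma 3.58.1 (R 4.3.3), with Benjamini-Hochberg adjustment over all genes and a threshold of 0.05; the fit was tested on simulated data. The labels give 1 rat per sample. Same-numbered rats of different groups, which share a slide, had correlated deviations (r of 0.133 to 0.594 in all 17 pairs, median 0.228). All 39 pairs of different groups on 1 slide had r of 0.060 to 0.594 (median 0.251). Every same-numbered pair also shared a slide, and the median of these pairs was not above that of all pairs on 1 slide. A part of the number beyond the slide was not tested, and the labels do not state that the numbers pair rats. The value with the replicate number as a block is given where it changes a call. Named list genes are the 6 with the smallest adjusted p in DKD against Sham and the 4 in DKD+enarodustat against DKD, with other list genes added after their values were seen and some not reported here; the 3 most correlated genes of each transporter were taken by r. The transporters and lists were chosen with earlier results of these data known. Alternatives tried were background correction, normalisation, filter, probe choice, slide, slide row, the authors' table and leaving out arrays. Precision is limited by the number of arrays.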

Additional observations from a re-analysis of the deposited data

Results flagged for a closer look

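The levels of the 9 genes were examined for a single array far from the others of its group, in 27 groups of 5 or 7 arrays, and 2 were found; chance flags about 1 in 20 groups. For Slco4c1, DKD replicate 4 was lowest at -8.08, and the nearest other DKD array had -5.93, a gap of 0.596 of the range of the group. This array lay in slide row 2 and had the highest summed adipocyte marker signal of all 19 arrays. For Slc22a6, Sham replicate 1 was lowest at 5.41, against 5.69 for the nearest Sham array, a gap of 0.748 of the range. Without that array the Slc22a6 difference between DKD and Sham was -0.41 (adjusted p = 0.0283).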

How the results depend on the processing

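Slc22a2 stayed lower in both diabetic groups than in Sham under every alternative run, and passed in all of them but slides 1 and 2 taken alone, in both comparisons with Sham. With 5 and 7 rats a group, small differences of the other genes sit near the threshold. In DKD against Sham 2 of the 9 genes were called. The count was 1 with arrays centred on their median, with no filter on dim probes, with slide row as a covariate, with the replicate block, on slide 3 alone and without the DKD arrays of slide row 2 (an alternative chosen after seeing the data). It was 4 in the authors' table, which has 8 of the genes, and 0 on slides 1 and 2 alone; leaving out 1 array gave 1 to 3. Against Sham, DKD+enarodustat had 3 called, against 5 with normexp and quantile normalisation, 6 in the authors' table, 5 with slide as a covariate, 1 with slide row as a covariate, 0 on slides 1 and 2 alone and 1 on slide 3; leaving out 1 array gave 2 to 5, the 5 without DKD+enarodustat replicate 1. With the replicate block, which groups arrays by a number that the labels do not call a pairing, 1, 0 and 3 genes were called in DKD against Sham, DKD+enarodustat against DKD and DKD+enarodustat against Sham. The calls changed are those of Slc22a6, Slc22a7, Slco2b1 and the unnamed Slc22a8 probe given beside their values.

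Of all genes, 4143 were called in DKD against Sham, against 0, 2 and 142 on slides 1, 2 and 3 alone, which hold few arrays, and 3156 to 3990 with 1 array left out. For DKD+enarodustat against DKD 484 were called, against 291 with median centring, 1775 in the authors' table, 284 with no filter, 913 with slide and 84 with slide row as a covariate, 1, 0 and 0 on the slides alone, 276 with the 2 groups fitted alone, 12 in slide row 2 alone (chosen after seeing the data) and 285 to 496 with 1 array left out, the 285 without DKD replicate 6. For DKD+enarodustat against Sham 6317 were called, against 10744 with no filter, of which 6919 were higher and where the median of all genes was 0.10, 1032 with slide row as a covariate, 14, 46 and 339 on the slides alone and 5178 to 6518 with 1 array left out. The cause of these changes was not tested.

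Directions reversed only for differences that had not passed. Between DKD+enarodustat and DKD, Slc22a8 had -0.017 with median centring, -0.0045 in the authors' table, -0.088 on slide 2, -0.0077 without the DKD arrays of slide row 2 and -0.059 to 0.071 with 1 array left out, and its unnamed probe -0.29 on slide 2. Slco4c1 had 0.84 with slide row as a covariate and in row 2 alone, 0.12 and 1.00 on slides 1 and 2 and -0.52 to 0.14 with 1 array left out. Slco2b1 had 0.057 and 0.17 on slides 2 and 3, 0.027 without the DKD arrays of row 2 and -0.084 to 0.046 with 1 array left out. Slc47a1 had 0.0054 with row as a covariate and in row 2 alone and 0.00062 on slide 3, Slc22a12 had 0.31 on slide 1 and -0.30 to 0.0047 with 1 array left out, and on slide 3 Slc22a2 had -0.034 and Slc22a7 -0.10. In DKD+enarodustat against Sham, Slc22a8 had -5.6e-05 in the authors' table, Slco4c1 0.20 with slide row and Slc22a12 0.13 on slide 1. In DKD against Sham Slc22a5 had 0.075 on slide 2 and -0.13 to 0.058 with 1 array left out.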
